A study of Neurospora crassa with 18 samples.

Results

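The genes described here are 112 genes of *Neurospora crassa* that had a high RNA level in wild type shifted to medium without phosphate and a low one in starved mycelium without NUC-1, and that the study does not name in its text. Transcript TPM (the share of a library's transcripts, corrected for transcript length) were summed per gene and averaged over the 3 libraries of a condition. A gene was taken where starved wild type of Experiment 1 was at 10 TPM or more and at least 4 times wild type at 7 mM phosphate, starved wild type of Experiment 2 was also at 10 TPM or more, and Δ*nuc-1* was at most 0.4 times that wild type. Of 9774 genes, 483 passed the steps in Experiment 1 (7.47% of genes at 10 TPM or more in starved wild type), 299 of these were at 10 TPM or more in starved wild type of Experiment 2, and 152 of the 299 were at or below 0.4 in Δ*nuc-1*, where 3.98% of genes at 10 TPM or more in wild type of Experiment 2 were. Leaving out 33 genes that the study names by locus number and 7 further ones left 112 genes, or 1.15% of all genes. The genes were thus selected on their levels in Experiments 1 and 2, which are given as a description with no test.

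The study covered 6 conditions in 3 experiments, all with poly(A) RNA of mycelia grown in constant light and washed into the test medium, and with 3 independently inoculated cultures per condition. Experiment 1 set wild type FGSC 2489 (*mat A*) at 0 mM phosphate for 4 h against the same strain at 7 mM for 4 h. Experiment 2 set Δ*nuc-1*, FGSC 11448 (*mat a*), against FGSC 2489 (*mat A*), both at 0 mM for 4 h. Experiment 3 set Δ*nuc-3*, FGSC 11356 (*mat a*), against wild type FGSC 4200 (*mat a*), both at 0 mM for 12 h. Each deletion strain is a single strain in which a hygromycin resistance cassette took the place of the gene. In Experiment 2 the strains also differed in mating type, so that the absence of *nuc-1* and the strain background cannot be told apart, and the 3 experiments were read on different sequencing platforms.

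NUC-1 is the basic helix-loop-helix transcription factor of the *N. crassa* phosphate response, related to Pho4 of budding yeast. With ample phosphate a cyclin and cyclin-dependent kinase pair keeps it inactive in the cytoplasm, and during starvation the inhibitor NUC-2 releases it so that it enters the nucleus. Its best known targets are secreted phosphatases and high-affinity phosphate permeases. Those that the study names were left out of the 112 genes.

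The deleted genes checked the labels. The RNA of *nuc-1* was at 2.25, 2.14 and 1.87 TPM in Δ*nuc-1*, against 37.9, 41.3 and 23.4 TPM in wild type of Experiment 2, and that of *nuc-3* (NCU03077) was at 1.45, 1.46 and 0.397 TPM in Δ*nuc-3*, against 227, 108 and 164 TPM in wild type. The *mat A* gene *matA-1* was at 0 in all 6 libraries of Experiment 3 and at 0.0609, 0 and 0 TPM in Δ*nuc-1*, against 7.64, 1.68 and 3.28 TPM in wild type of Experiment 2. The mycelial markers *hex-1*, *act* and *tef-1* were at 1605 TPM or more in every library and the fusion gene *so* was between 22.7 and 50.1 TPM. Because TPM hold no counts, the depth behind each value is unknown. In bulk mycelium a smaller number of cells of a type and less RNA per cell cannot be told apart.

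The ratio of starved wild type to wild type at 7 mM ran from 4.04 to 352 over the 112 genes, with a median of 7.11. It was at least 10 in 39 genes, at least 50 in 7 and at least 200 in 3. The level in Δ*nuc-1* was 2.00% to 39.9% of that in wild type, with a median of 28.8%, and at most 10% in only 5 genes. The rule itself set the upper limit of this level in Δ*nuc-1*, so no trait of the 112 genes is read from it. Set beside them, 18 of the genes that the study names as starvation-induced and lower in Δ*nuc-1*, chosen on these same samples, had a median ratio of 57.7 between 0 mM and 7 mM (5.66 to 506) and of 0.0285 between Δ*nuc-1* and wild type (0.00274 to 0.216). They include phosphatase and phosphate permease genes but also genes of other roles. The study chose them with other limits than the rule used for the 112 genes, so nothing is read from the difference in medians.

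**Figure D1:**
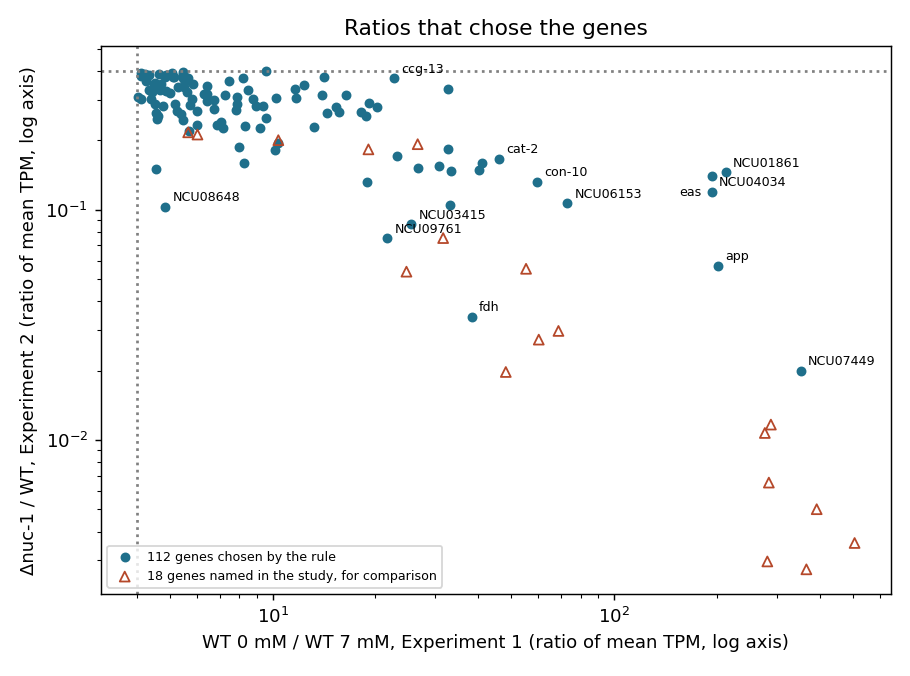
Each of the 112 genes (filled points) is placed by its ratio of mean TPM in wild type at 0 mM over 7 mM phosphate, Experiment 1 (log x axis), and by its ratio of mean TPM in Δ*nuc-1* over wild type, Experiment 2 (log y axis), with 18 genes named in the study as open triangles and the limits of the rule as dotted lines. NCU07449, at 352 and 0.0200, has the largest x value and the lowest y value of the filled points, while most points crowd towards the limits of 4 and 0.4.

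The libraries did not overlap in either comparison for any of the genes. All 3 starved wild-type libraries lay above all 3 libraries at 7 mM in 112 of 112 genes, where 62.5% of all genes at 10 TPM or more did so, and all 3 Δ*nuc-1* libraries lay below all 3 wild-type libraries in 112 of 112, where 32.4% of genes did so. Both contrasts were used to choose the genes, so nothing is read from these counts. Just inside the limit of 4 lay NCU16822 at 4.04, the glucoamylase gene *gla-2* at 4.11, the esterase D gene NCU00173 at 4.13, NCU00260 at 4.13 and NCU02376 at 4.25. Just outside it lay NCU01704 at 3.998, NCU04838 at 3.98, NCU09783 at 3.97, NCU09266 at 3.96 and NCU00591 at 3.85. At the limit of 0.4 the nearest genes inside were *gdh-1* at 0.399, NCU07569 at 0.397, NCU08076 at 0.393, *gla-2* at 0.391 and *cbh-1* at 0.388, and the nearest outside were NCU00838 at 0.401, NCU05070 and NCU06643 at 0.402, NCU01968 at 0.406 and NCU08677 at 0.407.

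Membership depended on the scale and on 1 library. When each library was first divided by its median ratio to the other libraries of its experiment, 65 of the 112 genes met the rule and no other gene did. Without replicate 1 of starved wild type in Experiment 2 the number was 76, all of them among the 112. Each change was made on its own, and 52 genes passed under both. That replicate was the highest of its 3 libraries in 106 of the 112 genes, against 53.6% of the 5860 genes at 10 TPM or more, and its level was 1.66 times the mean of the other 2 libraries at the median, against 1.12 over those 5860 genes. The coefficient of variation (SD over mean) in starved wild type of Experiment 2 had a median of 32.6% over the 112 genes and of 14.8% over all genes at 10 TPM or more. Without that replicate the ratio between Δ*nuc-1* and wild type moved by over 1.5 times in 8 genes, all towards equality. It was then 0.337 for NCU01861, 0.232 for NCU04034, 0.238 for *con-10*, 0.0357 for NCU07449, 0.273 for NCU03648, 0.0573 for *fdh*, 0.262 for *cat-2* and 0.257 for NCU06597. Of the 18 genes with a symbol, *dak-1*, *fdh*, *app*, *gh31-3*, *cat-2* and *eas* passed under both changes.

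Among the 112 genes 6 belong to the light, clock and development genes, and they include the highest levels of the list in starved wild type of Experiment 1. The gene *app*, named for an abundant protein of perithecia (the sexual fruiting bodies), was at 10004, 13878 and 11692 TPM in wild type at 0 mM, against 61.2, 49.9 and 65.2 TPM at 7 mM. In Experiment 2 it was at 7.88, 6.48 and 3.93 TPM in Δ*nuc-1*, against 171, 66.9 and 82.3 TPM in wild type. The ratios were 202 and 0.0571, and *app* was the gene with rank 5 by mean TPM among all genes of starved wild type in Experiment 1. The hydrophobin gene *eas*, whose product forms the water-repellent rodlets of conidia, was at 6351, 4689 and 6143 TPM in wild type at 0 mM, against 32.7, 22.0 and 34.1 TPM at 7 mM. It was at 9.57, 6.49 and 9.83 TPM in Δ*nuc-1*, against 83.0, 53.9 and 49.1 TPM in wild type. Both genes were higher in starved Experiment 1 cultures than in starved Experiment 2 cultures by a wide gap between the libraries.

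The conidiation gene *con-10* was at 227, 194 and 221 TPM in wild type at 0 mM, against 4.16, 3.64 and 2.99 TPM at 7 mM, and at 1.33, 1.78 and 1.62 TPM in Δ*nuc-1*, against 22.6, 6.14 and 7.12 TPM in wild type. The clock-controlled gene *ccg-13* was at 248, 1722 and 748 TPM at 0 mM, against 19.9, 33.9 and 66.3 TPM at 7 mM, a spread between replicates that was wider, relative to the mean, than that of the other genes of this group. In Δ*nuc-1* *ccg-13* was at 11.5, 18.9 and 7.75 TPM, against 33.0, 39.9 and 29.6 TPM in wild type, which left a ratio of 0.372 near the limit of the rule. The carotenoid gene *al-1*, which encodes phytoene desaturase, was at 595, 550 and 547 TPM at 0 mM, against 48.1 ± 1.83 TPM at 7 mM (mean ± SD, n = 3), and at 58.4, 46.6 and 33.7 TPM in Δ*nuc-1*, against 226, 127 and 101 TPM in wild type. The blue light-induced gene *bli-3* had ratios of 8.50 and 0.330.

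The summed level of other markers of conidiating tissue was also higher in starved wild type and lower in Δ*nuc-1*. The 6 markers *con-6*, *con-8*, *con-10*, *con-13*, *eas* and *fl*, of which *con-10* and *eas* are among the 112 genes, summed to 5171 to 6768 TPM in wild type at 0 mM, against 58.4 to 76.6 TPM at 7 mM, and to 34.4 to 37.1 TPM in Δ*nuc-1*, against 111 to 169 TPM in wild type. The 4 markers outside the 112 genes summed to 190 to 288 TPM at 0 mM, against 30.4 to 39.5 TPM at 7 mM, and to 23.0 to 27.6 TPM in Δ*nuc-1*, against 50.7 to 63.6 TPM in wild type. Among them *con-13* stayed between 0 and 4.86 TPM in all 18 libraries. In Experiment 2 most of the sum was *fl*, with a mean of 18.3 TPM in Δ*nuc-1*, against 39.7 TPM in wild type. There *con-8* was at 7.82, 5.70 and 5.12 TPM in Δ*nuc-1*, against 11.4, 12.3 and 17.9 TPM in wild type. The libraries of *con-6* overlapped, at 1.68, 0.263 and 0.526 TPM in Δ*nuc-1*, against 2.62, 2.15 and 1.44 TPM in wild type. The part of conidiating tissue in the levels of the 112 genes was not tested.

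**Figure D2:**
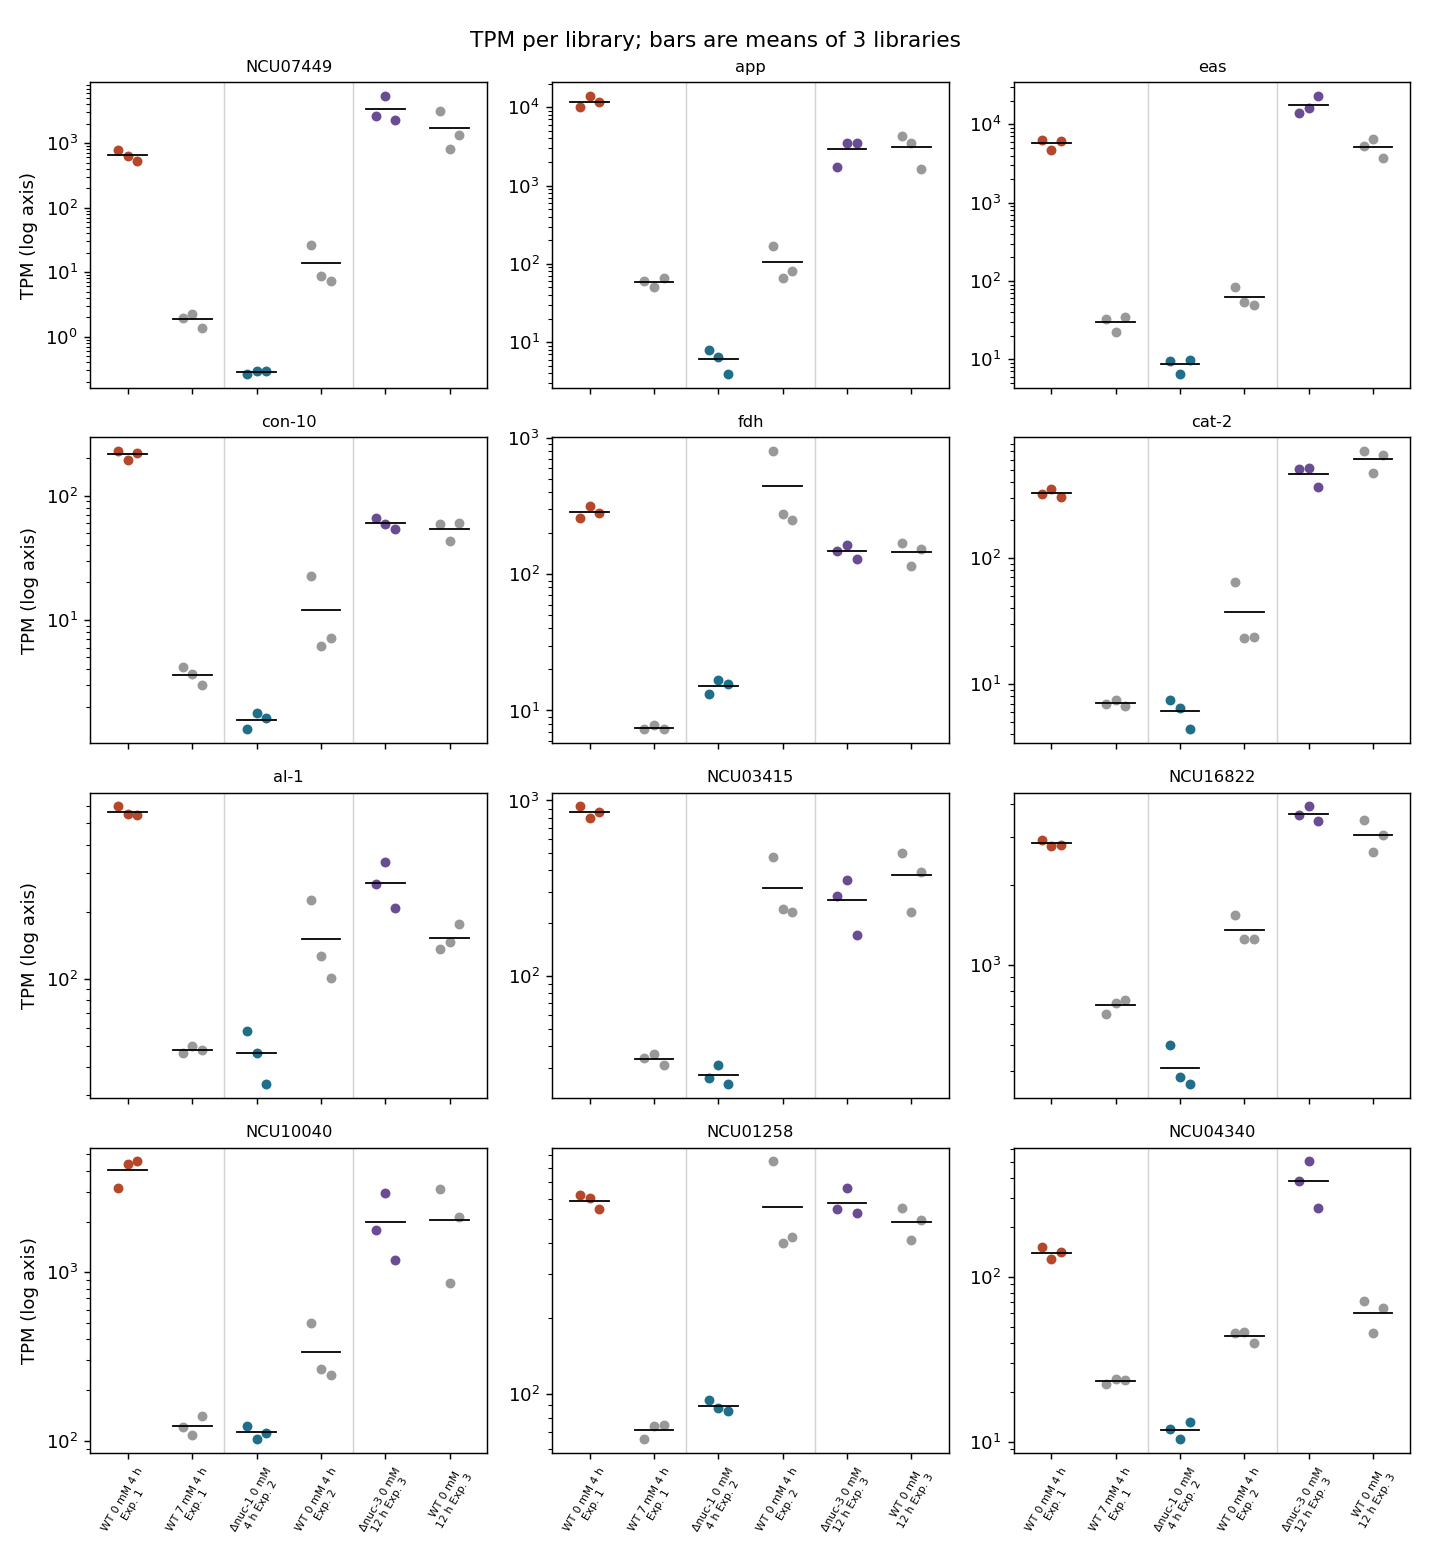
TPM in each of the 18 libraries (points, log y axis) for 12 genes, with the mean of 3 libraries as a bar, in the order wild type at 0 mM and 7 mM (Experiment 1), Δ*nuc-1* and wild type (Experiment 2), and Δ*nuc-3* and wild type (Experiment 3), with each comparison strain or medium in grey. Replicate 1 of wild type in Experiment 2 is the highest point of its condition in all of these genes except NCU04340, and *fdh* is the only one of them whose starved wild-type mean is higher in Experiment 2 than in Experiment 1.

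Oxidoreductases were the largest annotated group, with 11 genes and ratios between 0 mM and 7 mM from 4.78 to 38.3. The formate dehydrogenase gene *fdh*, whose product oxidises formate to carbon dioxide, was at 257, 320 and 284 TPM in wild type at 0 mM, against 7.32, 7.84 and 7.34 TPM at 7 mM. It was at 13.2, 16.7 and 15.6 TPM in Δ*nuc-1*, against 800, 278 and 251 TPM in wild type, and its ratio of 0.0342 was the second lowest of the 112 genes. Its Δ*nuc-1* libraries were well below even the lowest wild-type library. The aldehyde dehydrogenase gene NCU03415 was at 925, 791 and 861 TPM at 0 mM, against 34.0, 36.0 and 31.2 TPM at 7 mM, and at 26.3, 31.1 and 24.3 TPM in Δ*nuc-1*, against 475, 241 and 230 TPM in wild type. Another aldehyde dehydrogenase gene, NCU00378, had ratios of 5.73 and 0.286.

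Annotations of one-carbon metabolism were found on 3 of the 112 genes, a set put together after their values were seen and not counted over all genes. Besides *fdh* it held NCU04078, annotated as a NAD-dependent methanol dehydrogenase, at 121, 119 and 114 TPM at 0 mM, against 6.31, 6.72 and 5.73 TPM at 7 mM, and at 2.59, 2.41 and 2.77 TPM in Δ*nuc-1*, against 30.7, 15.5 and 12.8 TPM in wild type. Esterase D, encoded by NCU00173, hydrolyses S-formylglutathione to formate and glutathione, and its gene had ratios of 4.13 and 0.302.

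Enzymes of nitrogen release and of glutamate breakdown formed another set chosen after their values were seen, with 7 genes. Their ratios between 0 mM and 7 mM were from 4.78 to 30.8, and those between Δ*nuc-1* and wild type from 0.154 to 0.399. The glutaminase A gene NCU03648, for the enzyme that frees ammonia from glutamine, was at 61.5, 72.5 and 63.2 TPM at 0 mM, against 1.77, 2.23 and 2.40 TPM at 7 mM. In Experiment 2 it was at 2.05 ± 0.695 TPM in Δ*nuc-1* (mean ± SD, n = 3), against 25.0, 8.31 and 6.75 TPM in wild type. The Δ*nuc-1* level was thus near that of wild type at 7 mM, although the 2 values come from different experiments. Glutamate decarboxylase (NCU06803) and succinate semialdehyde dehydrogenase (NCU00936), enzymes of the pathway that turns glutamate into succinate by way of GABA, followed. The ratio between 0 mM and 7 mM was 16.4 for the decarboxylase gene and 4.86 for the dehydrogenase gene, and that between Δ*nuc-1* and wild type was 0.314 for the decarboxylase gene and 0.328 for the dehydrogenase gene. The gene *gdh-1* for the NAD-specific glutamate dehydrogenase was at 225, 123 and 140 TPM at 0 mM, against 16.8, 17.0 and 17.2 TPM at 7 mM, and lay closest of all to the limit of 0.4.

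Cyanase, which breaks down cyanate to ammonia and carbon dioxide, is encoded by NCU01258, one of the most abundant of the 112 genes in Experiment 2. It was at 94.5, 87.3 and 85.4 TPM in Δ*nuc-1*, against 847, 402 and 422 TPM in wild type, and at 620, 604 and 547 TPM in wild type at 0 mM of Experiment 1, against 65.7, 74.4 and 74.6 TPM at 7 mM. Unlike the development genes, the cyanase gene had a similar starved wild-type mean in Experiments 1 and 2 (590 and 557 TPM). An acetamidase gene (NCU08356, ratios of 8.97 and 0.282) and an amine oxidase gene (NCU08925, 4.78 and 0.282) complete this set. Of the set, only NCU01258, NCU06803 and NCU08356 met the rule both on rescaled TPM and, separately, without replicate 1 of starved wild type in Experiment 2.

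Lipid and acyl-CoA genes numbered 6. Of these, only NCU09043 and NCU04845 met the rule both on rescaled TPM and, separately, without replicate 1 of starved wild type in Experiment 2. The caleosin gene NCU09043, for a calcium-binding protein of lipid droplets, stood out with 859, 1217 and 1041 TPM at 0 mM, against 38.6, 36.8 and 41.4 TPM at 7 mM, and with 58.7, 21.3 and 21.4 TPM in Δ*nuc-1*, against 331, 172 and 168 TPM in wild type. The other 5 of these genes had ratios between 0 mM and 7 mM of 4.44 to 5.48. They are *acd-1* and *acd-2* for acyl-CoA dehydrogenases of fatty acid oxidation (ratios between Δ*nuc-1* and wild type of 0.353 and 0.264), *acu-9* for malate synthase of the glyoxylate cycle (0.323), NCU04845 for a phytanoyl-CoA dioxygenase (0.246) and NCU00608 for an AMP-binding enzyme (0.384). Close to these in size was *dak-1*, the dihydroxyacetone kinase gene, at 379, 465 and 430 TPM at 0 mM, against 49.8, 55.1 and 56.6 TPM at 7 mM, with a ratio of 0.307 between Δ*nuc-1* and wild type.

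Carbohydrate-active enzymes also numbered 6 and covered a wide range of levels. The galactose oxidase gene NCU09209 was at 1732, 1312 and 1436 TPM at 0 mM, against 91.6, 80.3 and 139 TPM at 7 mM, and at 135, 109 and 100 TPM in Δ*nuc-1*, against 576, 397 and 343 TPM in wild type. The other 5 were genes of low level, since their means were at most 47.8 TPM in starved wild type of Experiment 1. Among them the cellobiohydrolase gene *cbh-1* was at 16.2, 16.9 and 16.6 TPM at 0 mM, against 3.04 ± 0.520 TPM at 7 mM (mean ± SD, n = 3), and the glycosyl hydrolase gene *gh2-2* was at 20.6, 24.4 and 20.6 TPM, against 2.81, 3.05 and 3.17 TPM. The genes *gh31-3*, *gla-2* and the xylosidase gene NCU01900 had ratios of 6.74, 4.11 and 5.99. The 1 annotated transporter, NCU05627, named for the high-affinity glucose transporter *ght1* of fission yeast, was at 580, 429 and 456 TPM at 0 mM, against 94.2, 91.6 and 85.4 TPM at 7 mM, and at 84.4, 81.6 and 69.4 TPM in Δ*nuc-1*, against 380, 272 and 256 TPM in wild type.

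The stress group held 3 genes. Catalase-2, encoded by *cat-2*, breaks down hydrogen peroxide, and its gene was at 322, 349 and 305 TPM at 0 mM, against 6.92, 7.48 and 6.72 TPM at 7 mM. It was at 7.51, 6.52 and 4.41 TPM in Δ*nuc-1*, against 63.9, 23.4 and 23.6 TPM in wild type. The ratio of 46.2 set *cat-2* apart from a glutathione transferase gene (NCU00549, 5.52) and a Clp protease gene (NCU05427, 4.49). The riboflavin synthesis gene *rib-3* had ratios of 5.25 and 0.268, and a gene annotated as a secreted protein, NCU02338, was at 122, 139 and 138 TPM at 0 mM, against 3.16, 3.57 and 2.98 TPM at 7 mM.

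The remaining 66 genes (58.9%) were 8 annotated as hypothetical protein and 58 without an annotation in the shortened copy of the study's table used here. Of the 22 genes with a ratio of at least 20 between 0 mM and 7 mM, 12 (54.5%) were among these 66. These shares are not read as a trait of the genes, and the sizes of the groups above count annotated genes only. NCU07449 had the largest ratio between 0 mM and 7 mM and the lowest between Δ*nuc-1* and wild type. It was at 790, 634 and 522 TPM in wild type at 0 mM, against 1.98, 2.22 and 1.34 TPM at 7 mM, and at 0.264, 0.290 and 0.290 TPM in Δ*nuc-1*, against 26.5, 8.61 and 7.17 TPM in wild type. The ratio between Δ*nuc-1* and wild type was 0.0200, and 0.0357 without replicate 1 of wild type. The gene lies on chromosome I from 584437 to 585580 in the assembly of strain OR74A (version 12). Without that replicate the wild-type mean was 7.89 TPM, and NCU07449 no longer met the rule.

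NCU01861 (chromosome I) was at 414, 489 and 479 TPM at 0 mM, against 1.94, 1.96 and 2.61 TPM at 7 mM, and NCU04034 (chromosome VI) was at 510, 252 and 312 TPM, against 1.44, 2.31 and 1.81 TPM. In Experiment 2 NCU01861 was at 5.22, 1.65 and 3.54 TPM in Δ*nuc-1*, against 50.9, 12.8 and 7.85 TPM in wild type, and NCU04034 was at 4.13, 2.74 and 3.59 TPM in Δ*nuc-1*, against 57.4, 14.5 and 15.5 TPM in wild type. Both genes were close to silent at 7 mM in every library. NCU06153 (chromosome VII) had ratios of 72.8 and 0.107, and NCU08455 (chromosome II) had ratios of 40.2 and 0.148. By contrast, NCU08648 had one of the lowest ratios between Δ*nuc-1* and wild type, 0.103, with a ratio of only 4.86 between 0 mM and 7 mM. It was at 16.4, 15.4 and 25.7 TPM in Δ*nuc-1*, against 208, 161 and 190 TPM in wild type, and at 83.5, 73.5 and 69.9 TPM in wild type at 7 mM, so that its level in Δ*nuc-1* was below that of phosphate-fed wild type in each library. NCU09761 had ratios of 21.7 and 0.0752, and NCU00166 had ratios of 33.2 and 0.105.

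By level in starved wild type of Experiment 2, NCU16822 led the list, at 500, 381 and 358 TPM in Δ*nuc-1*, against 1538, 1247 and 1252 TPM in wild type. NCU02887 followed with 143, 142 and 167 TPM in Δ*nuc-1*, against 874, 498 and 523 TPM in wild type. The other genes of the first 10 were the cyanase gene NCU01258, the glycerol-3-phosphate dehydrogenase gene NCU05454, NCU05134, *fdh*, the galactose oxidase gene NCU09209, NCU00884, NCU06603 and *bli-3*. NCU06603 was at 73.0, 67.7 and 73.8 TPM in Δ*nuc-1*, against 561, 320 and 287 TPM in wild type, and NCU05134 at 158, 103 and 108 TPM, against 536, 378 and 416 TPM.

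The level in Δ*nuc-1* was set beside that of wild type at 7 mM, with the limit that the experiments, and the strains, differ. The mean in Δ*nuc-1* at 0 mM was lower than that of wild type at 7 mM in 86 of the 112 genes, and wild type at 7 mM had a median 1.46 times the mean of Δ*nuc-1*. Both levels were used to choose the genes, and the share over all genes was not counted, so nothing is read from these values. Mean TPM over the genes had a median of 225 in wild type at 0 mM and 21.1 in wild type at 7 mM of Experiment 1, and of 11.3 in Δ*nuc-1* and 43.7 in wild type of Experiment 2.

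Starved wild type of the same strain and time differed between Experiments 1 and 2. The mean of Experiment 1 was higher than that of Experiment 2 in 109 of the 112 genes, at least 2 times as high in 86 and at least 10 times in 13, with a median ratio of 3.36. Over the 6651 genes at 10 TPM or more in either, the median ratio was 1.27, and over the other 187 starvation-induced genes that passed the same first steps it was 3.31, close to that of the 112 genes. At least 5 times as high were 29.5% of the 112 genes and 4.47% of all. The 112 genes were chosen for a high level in starved wild type of Experiment 1, and this share was not counted over the other 187 genes. The largest ratios were those of *app* (111), *eas* (92.4), NCU07449 (46.0), NCU08455 (43.9), *ccg-13* (26.5), NCU01946 (21.7) and NCU06153 (21.2). At the other end *fdh* (0.648), NCU02887 (0.760) and NCU06697 (0.870) were lower in Experiment 1. The sequencing platform differed between the experiments, and its part in these ratios was not tested.

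**Figure D3:**
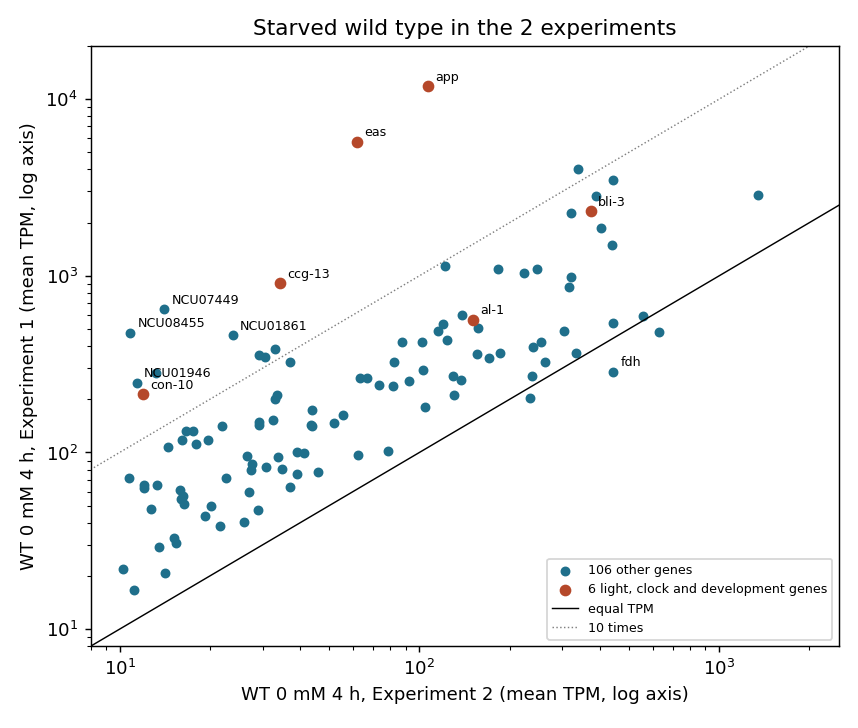
Mean TPM of each of the 112 genes in starved wild type (0 mM, 4 h) of Experiment 1 (log y axis) against Experiment 2 (log x axis), with light, clock and development genes in red and lines at equal TPM and at 10 times. Nearly all points lie above the line of equal TPM, and *app*, *eas* and *ccg-13* lie above the line of 10 times.

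In 6 genes (NCU00877, NCU01946, NCU03693, NCU08455, *ccg-13* and NCU16683) starved wild type of Experiment 2 had a lower mean than phosphate-fed wild type of Experiment 1, and in 39 genes, these 6 included, it was under 2 times that level.

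The 112 genes together took 6.38% to 6.85% of library TPM in wild type at 0 mM, against 0.511% to 0.588% at 7 mM. In Experiment 2 they took 0.434%, 0.343% and 0.347% in Δ*nuc-1*, against 1.84%, 1.18% and 1.12% in wild type, and at 12 h they took 5.50% to 6.52% in Δ*nuc-3*, against 4.23% to 5.31% in wild type. The ranges of Δ*nuc-3* and wild type did not overlap. Without *eas* and *app* they did, with 3.82% to 4.54% in Δ*nuc-3*, against 3.33% to 4.34% in wild type.

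**Figure D4:**
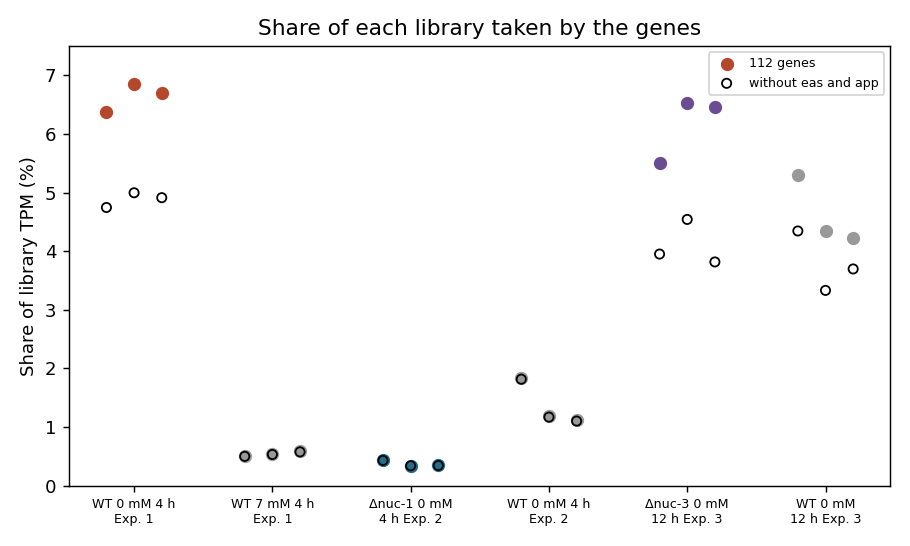
Share of each library's TPM taken by the 112 genes (filled points) and by the 110 genes other than *eas* and *app* (open circles), in percent, for the 3 libraries of each of 6 conditions. The share is highest in starved wild type of Experiment 1 and in both strains at 12 h, and lowest in Δ*nuc-1*.

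Wild type starved for 12 h in Experiment 3 was set beside wild type starved for 4 h in Experiment 2, where time, strain, mating type and platform all differ and cannot be told apart. After rescaling over all 18 libraries, 85 of the 112 genes (75.9%) were higher at 12 h, against 47.2% of 6553 genes, and 49 were at least 2 times as high, where 13.7% of those genes were. In deposited TPM 90 of the 112 genes (80.4%) were higher at 12 h, against 58.2% of 6581 genes. The rule also used wild type of Experiment 2, and the other 187 starvation-induced genes were not counted, so nothing is read from these counts. Against starved wild type of Experiment 1 the order was the other way round, with 88 genes lower at 12 h, against 47.3% of all genes. The rule chose the 112 genes for a high level in starved wild type of Experiment 1, so nothing is read from that count. In deposited TPM the 12 h level was 156 times that of Experiment 2 for *ccg-13*, 124 times for NCU07449, 83.9 times for *eas*, 29.6 times for *app* and 16.4 times for *cat-2*. Compared with wild type at 7 mM and 4 h, 111 of the 112 genes had a higher TPM at 12 h and 68 (60.7%) were at least 4 times as high, against 7.24% of 6668 genes. The level at 7 mM was also used by the rule, which asked for it to be low beside starved wild type. Nothing is therefore read from these shares.

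The comparison of Δ*nuc-3* with wild type at 12 h was not used to choose the genes and was therefore tested. It was fitted with limma on log2(TPM + 1) after rescaling, with Benjamini-Hochberg adjustment over 8005 genes, and a call also needed a 2-fold ratio and 10 TPM. Of the 111 genes with a value, 1 was called higher in Δ*nuc-3* and 0 were called lower, against 51 of all genes called higher (0.637%) and 7 called lower (0.0874%). At an unadjusted limma p under 0.05 there were 34 of the 111 (30.6%), with 26 higher and 8 lower in Δ*nuc-3*, where 21.7% of all genes tested passed that mark. The 111 genes had a median log2 fold change of 0.11, against -0.01 over all genes tested, and 65.8% of them had a value above 0, against 48.4% of all.

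The called gene was NCU04340, annotated as an acetyltransferase. It was at 380, 500 and 262 TPM in Δ*nuc-3*, against 71.5, 45.7 and 64.4 TPM in wild type, a log2 fold change of 2.62 with a standard error of 0.218 (limma adjusted p = 0.0071), on a scale that understates changes of low genes. Every Δ*nuc-3* library was more than 3 times the highest wild-type library. Without replicate 3 of wild type the adjusted p was 0.065, and NCU04340 was not called. In the experiments that chose it, NCU04340 was at 151, 129 and 141 TPM in wild type at 0 mM, against 22.5, 24.1 and 23.6 TPM at 7 mM, and at 11.9, 10.4 and 13.1 TPM in Δ*nuc-1*, against 45.7, 46.4 and 39.8 TPM in wild type. It lies on chromosome IV from 3724656 to 3727393, with 1 gene between it and NCU04342, another of the 112 genes. NCU04342 was on the other side of equality at 12 h, with 274, 194 and 286 TPM in Δ*nuc-3*, against 463, 433 and 405 TPM in wild type (log2 fold change of -0.79, limma adjusted p = 0.093, not called).

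The hydrophobin gene *eas* had the second largest value of the list at 12 h but did not pass the test. It was at 13791, 16240 and 22878 TPM in Δ*nuc-3*, against 5314, 6588 and 3690 TPM in wild type, with a log2 fold change of 1.78 (limma adjusted p = 0.054). All 3 Δ*nuc-3* libraries were above all 3 wild-type libraries. The conidiation marker *con-6*, which is not one of the 112 genes, was called higher in the same comparison, at 21.8, 23.0 and 19.1 TPM in Δ*nuc-3*, against 8.88, 10.1 and 11.5 TPM in wild type (log2 fold change of 1.02, limma adjusted p = 0.020). The study counts *con-6* among the genes that NUC-3 represses directly. It reports NUC-3 binding in vitro at the promoter and RNA at least 2-fold higher in Δ*nuc-3*. The gene *con-10* was at 66.2, 58.8 and 54.2 TPM in Δ*nuc-3*, against 59.1, 43.4 and 60.4 TPM in wild type, with overlap. The marker *con-8* was at 955, 907 and 1175 TPM in Δ*nuc-3*, against 500, 937 and 646 TPM in wild type (log2 fold change of 0.60, limma adjusted p = 0.27, not called), and its libraries overlapped. The marker *fl* was at 48.5, 48.3 and 55.9 TPM in Δ*nuc-3*, against 42.5, 53.4 and 47.2 TPM in wild type (0.11, limma adjusted p = 0.72, not called), also with overlap, and *con-13* was at 0 in all 3 Δ*nuc-3* libraries, against at most 0.140 TPM in wild type. The 4 markers outside the 112 genes summed to 978 to 1250 TPM in Δ*nuc-3*, against 551 to 1001 TPM in wild type, ranges that overlapped, while the sum of all 6 was mostly *eas* itself. The part of the other markers in the values of *eas* was not tested.

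With NCU04340 and *eas*, 5 genes had a ratio of at least 2, where 2.07% of all genes tested did, and the other 3 did not pass the test either. NCU04597 had a log2 fold change of 1.16 (limma adjusted p = 0.065), NCU07449 of 1.11 (0.25) and NCU08455 of 0.96 (0.13). NCU07449 was at 2672, 5341 and 2277 TPM in Δ*nuc-3*, against 3096, 804 and 1327 TPM in wild type, and its libraries overlapped. The carotenoid gene *al-1* was at 266, 335 and 209 TPM in Δ*nuc-3*, against 136, 146 and 177 TPM in wild type, with no overlap (log2 fold change of 0.81, limma adjusted p = 0.069). At the low end NCU07569 (log2 fold change of -0.81), NCU04342 (-0.79) and *gh31-3* (-0.76) were not called. No gene of the list had a ratio at or below 0.5, and 91 of the 111 lay between 0.67 and 1.5.

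Libraries of the strains did not overlap in 25 of the 111 genes, with Δ*nuc-3* higher in 15 (13.5%, against 12.3% of all genes at 10 TPM or more) and lower in 10 (9.01%, against 16.0% of all). Among the named groups, the 6 lipid genes had ratios from 1.06 to 1.69 and the 3 one-carbon genes from 1.03 to 1.13. The 7 genes of nitrogen release and glutamate breakdown had ratios from 0.755 to 1.74. The gene *fdh* was at 148, 164 and 130 TPM in Δ*nuc-3*, against 169, 115 and 154 TPM in wild type, and *dak-1* was at 280, 297 and 221 TPM in Δ*nuc-3*, against 288, 237 and 284 TPM in wild type, so that the strains overlapped in both. The 18 genes named by the study had a median log2 fold change of 0.69 with ratios from 0.439 to 2.64. Of these, 5 had a ratio of at least 2 in Δ*nuc-3*, with limma adjusted p from 0.054 to 0.127, so that 0 were called higher here. These 5 are *pho-2*, *gdp-1*, *bet-6*, *grn* and NCU09767. The study, with a different method (DESeq2), reports all 5 as at least 2-fold higher in Δ*nuc-3*, and *pho-2* also by RT-qPCR. The lack of a call here therefore does not speak against the study's result. Of the 18 genes 1 was called lower, the sugar transporter gene *sut-28* (NCU05897).

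**Figure D5:**
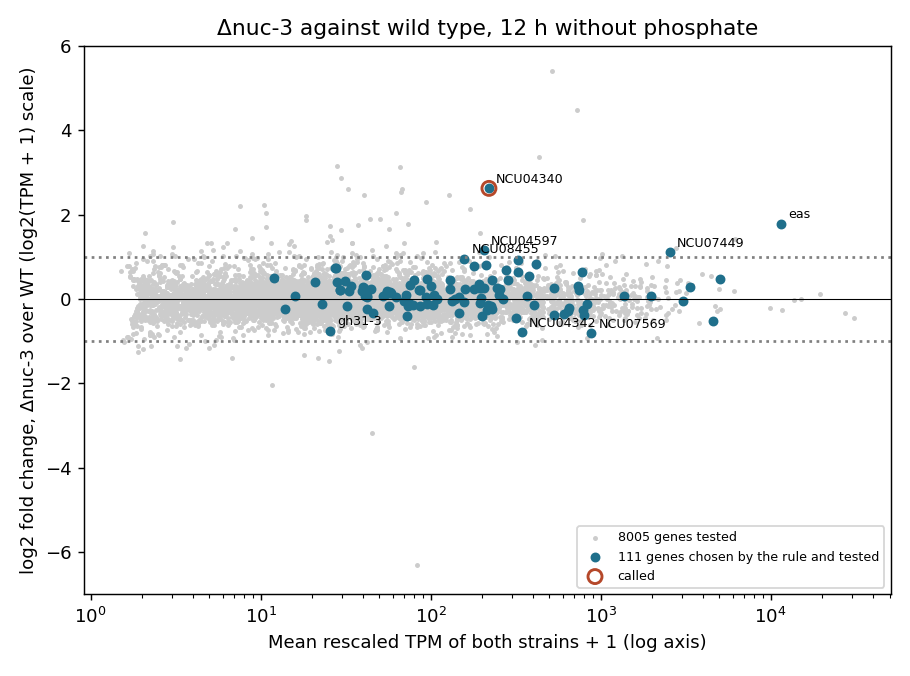
Log2 fold change of Δ*nuc-3* over wild type after 12 h without phosphate (y axis) against mean rescaled TPM of both strains plus 1 (log x axis) for 8005 genes (grey) and the 111 genes with a value (blue), with dotted lines at a 2-fold change. NCU04340 is the only called gene of the list (circled), and *eas* is the blue point with the largest mean.

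The genes were spread over all 7 chromosomes, at 0.956% of the genes of chromosome III to 1.33% of those of chromosome V. Direct neighbours within the list were NCU07454 and NCU07453 on chromosome I, NCU16742 and NCU04908 on chromosome IV, and NCU09532 with NCU09533 and *acd-2* with the amine oxidase gene NCU08925 on chromosome V. NCU16742 and NCU04908 are 233 bases apart. NCU16742 was at 425, 427 and 449 TPM in wild type at 0 mM, against 25.5, 31.7 and 36.1 TPM at 7 mM, and at 50.8, 27.8 and 38.2 TPM in Δ*nuc-1*, against 178, 104 and 90.8 TPM in wild type. NCU04908 was at 280, 264 and 252 TPM in wild type at 0 mM, against 13.1 ± 0.451 TPM (mean ± SD, n = 3) at 7 mM, and at 19.4, 14.8 and 18.4 TPM in Δ*nuc-1*, against 97.6, 46.4 and 45.6 TPM in wild type. NCU16742 was above NCU04908 in each library of these 4 conditions. A further 4 genes lie beside genes that the rule left out, namely NCU02128 beside NCU02127, the galactose oxidase gene NCU09209 beside NCU09210, NCU10040 beside NCU10039, and the flotillin gene NCU05899 beside *sut-28*. After *app* and *eas*, NCU10040 had the highest mean of the list in starved wild type of Experiment 1, at 3162, 4388 and 4542 TPM, against 121, 108 and 140 TPM at 7 mM, and at 123, 102 and 112 TPM in Δ*nuc-1*, against 499, 268 and 246 TPM in wild type.

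NCU01946 differed from the rest at 12 h, as the only one of the 112 genes listed at 0 in all 6 libraries of Experiment 3. It was at 295, 235 and 213 TPM in wild type at 0 mM, against 52.6, 46.2 and 64.2 TPM at 7 mM, and at 1.61, 0 and 3.54 TPM in Δ*nuc-1*, against 15.4, 9.07 and 9.73 TPM in wild type. Both strains of Experiment 3 and Δ*nuc-1* are *mat a*, while the wild type of Experiments 1 and 2 is *mat A*, and the gene lies on chromosome I at 1905366, 43171 bases past the end of *matA-1*. For NCU01946 the absence of *nuc-1* and the difference between strains cannot be told apart. Across all genes, 9 were at 10 TPM or more in wild type of Experiment 2 and at 0 in all 6 libraries of Experiment 3.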

How the data were processed

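RNA of 18 libraries, 3 per condition, was measured by poly(A) RNA sequencing. Per the labels, the authors ran Salmon version 1.4.0, and the deposited TPM refer to transcripts of the OR74A genome (version 12). Each library adds up to 1000000.0 TPM, so TPM hold no counts, the depth is unknown and no counting interval is given. Precision is given as the spread between libraries. Samples were grouped by their labels.

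Transcript TPM were summed per gene over 10697 transcripts. The 112 genes, the lists and the groups were chosen with earlier results of these data known. Groups follow words of the study's annotation, with some words added after they were read. The comparison at 12 h was fitted with limma version 3.58.1 in R version 4.3.3 on log2(TPM + 1) for genes averaging 1 TPM or more in 1 strain or both, after division of each library by its median ratio to the geometric mean of the 6 libraries. Ratios at 12 h are of these rescaled TPM. The procedure was tested on simulated data. Genes given in full were those with a symbol, the first 10 by starved TPM in Experiment 2 or by either ratio, those called, those nearest the limits and direct neighbours, and others were named after their values were seen. Genome positions and symbols came from RefSeq. Alternatives changed the scaling, limits, pseudocount, filters, transcripts, fit and libraries. Python version 3.11.15, pandas version 2.3.3, NumPy version 2.4.6 and matplotlib version 3.10.9 were used.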

Additional observations from a re-analysis of the deposited data

How the results depend on the processing

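The rule chose 65 genes on rescaled TPM and 36 with a limit of 0.25 between Δ*nuc-1* and wild type, against 112 as reported. Leaving out single libraries gave 76 to 136 genes, with 76 without replicate 1 of starved wild type in Experiment 2, and 69 genes were chosen whichever library was left out. At 12 h, members called higher in Δ*nuc-3* were 2 with TPM as deposited (*eas* added) and 2 with a robust spread (*eas* added), 4 with a fit over all 18 libraries (NCU04597, NCU08455 and *eas* added), and 0 to 1 without single libraries. Members called lower were 1 with the most abundant transcript only (NCU07310) and 0 in each other setting. Over all genes, 4 were called lower with TPM as deposited and 11 with the fit over all 18 libraries, against 7, and leaving out single libraries gave 4 to 39 higher and 1 to 11 lower, with 4 higher and 1 lower without replicate 3 of wild type. With the replicate block, 0 members and 2 genes were called higher and 0 members and 1 gene lower, and NCU04340 had an adjusted p of 0.083 by limma. Nothing in the labels pairs the replicate numbers, and the same-numbered libraries had correlations of -0.17, -0.69 and -0.05. Between libraries of different number the correlations ran from -0.60 to 0.68. Of 368 values of 23 named genes under 16 alternatives at 12 h, 361 kept their side of the threshold, 2 lost a call, 5 gained one and 0 called values changed sign. The causes were not tested. The count of genes higher at 12 h than in Experiment 2 was 90 without replicate 1 of wild type in Experiment 2 (chosen after seeing the data), against 85. The search for a motif in promoters was not run, since no sequences were used here. With 3 libraries per condition an exact permutation test cannot give a p below 0.1, and without counts the precision of genes of low TPM is unknown.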
